A study of Mus musculus with 3 samples.

Results

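The genes described here encode the axon guidance ligands and receptors, 8 families of extracellular cues and the cell surface proteins that read them. They were taken by gene symbol: semaphorins of classes 3 to 7, plexins, Eph receptors, ephrins, Robo receptors, Slit ligands, netrins and Unc5 receptors. In all 66 genes with 85 probes met the rule, of 20886 genes that could be named on the array. Expression was measured on single-colour (Cy3) Agilent mouse arrays in primary cells from the penile erectile tissue of C57BL/6 mice, which the labels call cavernous endothelial cells. The 3 conditions were 30 mmol glucose with added DKK2 protein, 30 mmol glucose alone, and 5 mmol glucose, called high glucose with DKK2, high glucose and normal glucose below. Each lasted 48 h, and all cells were kept in medium with serum, heparin and vascular endothelial growth factor A. DKK2 is a Dickkopf family protein that cells secrete and that acts on Wnt receptors. The sources used here do not state its dose. Each condition is a single array of RNA pooled from 3 samples, which leaves no replicate check and allows no test.

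Guidance cues were named for steering growing axons, and the same proteins act on blood vessels. Slits bind Robo receptors, class 3 semaphorins bind neuropilins and signal through plexins, most other semaphorins bind plexins directly, ephrins on 1 cell bind Eph receptors on its neighbour, and netrins bind Dcc and Unc5 receptors. In endothelium, Efnb2 marks arteries and its receptor Ephb4 marks veins, Robo4 and Unc5b are guidance receptors of vascular cells, and Sema3e acts through Plxnd1 to repel growing vessels.

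Signals are given as the processed signal in percent of the 75th percentile of signal on the same array, since the normal glucose array was dimmer (75th percentile 2676 with DKK2, 2571 in high glucose and 1279 in normal glucose). Levels of different probes are not comparable, so each gene is compared with itself across arrays. A difference is log2 of the first named condition over the second, and "higher" or "lower" in a count means at least 2-fold, read on the brightest probe of a gene where it was well above background on both arrays. The scanner's error model gave members a technical SD of 0.20 to 0.32 for the DKK2 difference and 0.20 to 0.32 for the glucose difference, with a median of 0.20; culture to culture variation is not in it. Of the 66 members, 62 had their probe well above background on all 3 arrays and 65 on 1 or more, and the netrin gene Ntn5 on none. The share of all probes above background was 83.9% with DKK2, 84.7% in high glucose and 76.6% in normal glucose.

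The labelled cell type was checked on marker genes. Of 17 endothelial markers, 16 were above background with DKK2, 17 in high glucose and 15 in normal glucose. The signal of Cdh5, which encodes VE-cadherin, was 11.6%, 22.1% and 15.2%, and that of Kdr, the VEGF receptor 2 gene, was 407%, 355% and 285% in the same order. The endothelial transcription factor gene Erg was not well above background with DKK2 or in normal glucose. All 10 fibroblast and all 10 smooth muscle and pericyte markers were above background on the 3 arrays, with Col1a1, a fibrillar collagen gene, at 1795%, 3122% and 3626%. So were the 8 Schwann cell and glia, 6 adipocyte and 9 macrophage and leukocyte markers on the array. Of 6 neuron markers 6, 6 and 5 passed, of 6 skeletal muscle markers 5, 6 and 6, and of 6 epithelial markers 6, 4 and 3. Passing background therefore did not tell most of these cell types apart. How much each cell type contributed was not measured, and in such bulk RNA fewer cells of a type and less RNA per cell cannot be told apart.

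DKK2 in high glucose was first set against high glucose alone, which asks what the protein changed under glucose load. Of 63 members measured on both arrays, 11 were lower and 4 were higher. The lower ones were Robo2, Sema3d, Sema6c, Robo4, Plxna3, Efnb3, Sema3e, Epha4, Sema7a, Efna2 and Efnb1, and the higher ones were Robo3, Unc5d, Sema4d and Plxna1. Over all 17825 genes measured, 5.13% were lower and 4.73% were higher (9.86% in either direction), against 17.5% and 6.35% of the members. The median difference of the members was -0.20, against 0.04 over all genes, and 66.7% of the members lay below 0, against 45.6% of all genes. These are descriptions of 2 arrays. Several members lay near the 2-fold limit: Plxna1 (1.01), Efnb1 (-1.04) and Efna2 (-1.09) just inside it, Unc5c (-0.9967) and Epha3 (-0.91) just outside. Normexp background correction, a model of spot and local background signal, fitted on the spots without a quality flag, left 10 of the 11 lower members and 1 of the 4 higher members (Robo3) past 2-fold. With that fit 2.97% of all genes were lower and 2.61% higher.

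**Figure D1:**
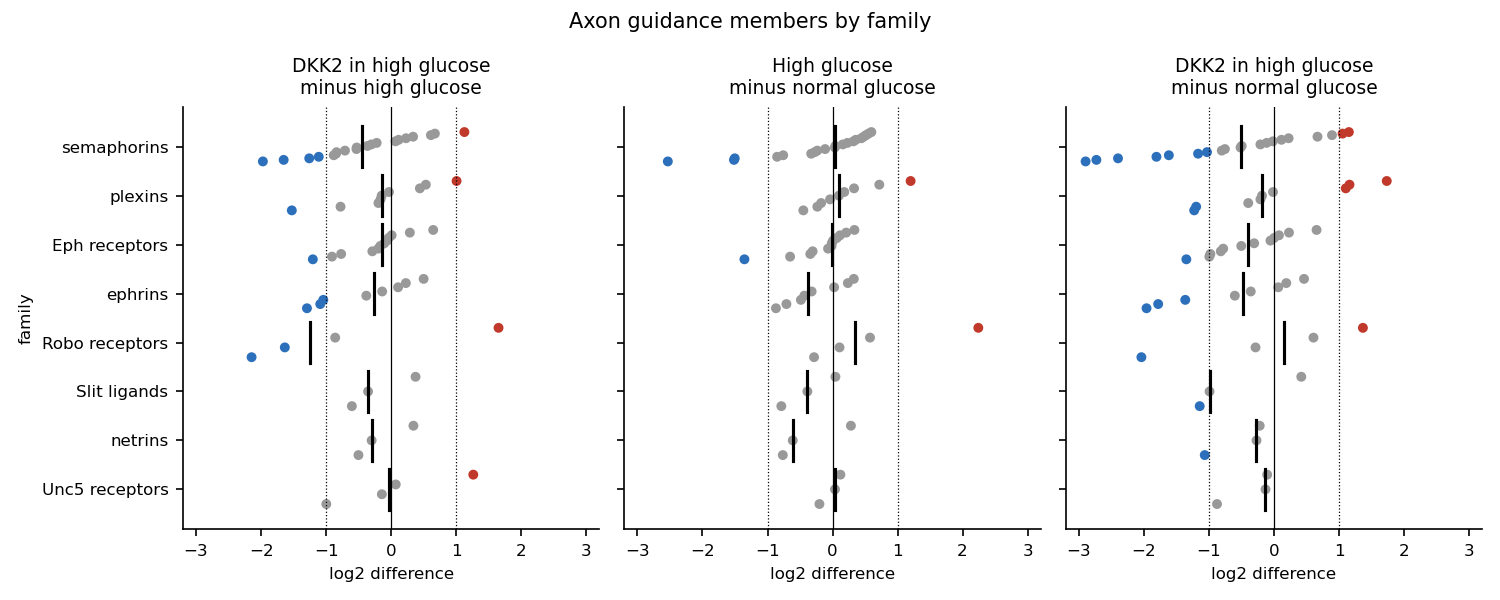
Log2 differences of the axon guidance members (horizontal axes) by family (rows) for the 3 comparisons; points are genes, black bars family medians, dotted lines the 2-fold limits, red and blue points genes past them. With DKK2 against high glucose 11 members lie left of the limit and 4 right of it, while in high glucose against normal glucose 4 lie left and 2 right.

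The Robo receptors spread most widely in this comparison, with differences between -2.15 and 1.65 over 4 genes. Robo2, a Slit receptor, read 10.7% with DKK2, 47.4% in high glucose and 44.0% in normal glucose. It was thus 4.43-fold lower with DKK2 than in high glucose, while high and normal glucose lay close together. The log2 difference with DKK2 was -2.15 (error SD 0.20), or -1.92 with normexp fitted on unflagged spots. The other Robo2 probe read 4.32%, 15.7% and 54.1%, a difference of -1.86 with DKK2. The fall with DKK2 was thus seen on both probes, but only the other probe differed between high and normal glucose. Robo3, a divergent member that in mammals does not bind Slits with high affinity, read 72.4% with DKK2, against 23.0% in high glucose and 28.0% in normal glucose. It was 3.14-fold higher with DKK2 than in high glucose (log2 1.65) and 2.58-fold higher than in normal glucose. Robo4, the endothelial member of the family, read 6.58% with DKK2, 20.4% in high glucose and 4.32% in normal glucose. Only the high glucose array was high for Robo4: the difference was -1.63 with DKK2 and 2.24 for glucose, both computed with that same array, and DKK2 against normal glucose was at 0.61. That last difference was -0.47 with normexp fitted on all spots and 0.08 fitted on unflagged spots, so it has no settled direction. For DKK2 against high glucose Robo4 was at -1.36 with the fit on unflagged spots. Of the 15 endothelial markers above background on all arrays, 9 were also highest in high glucose, 6 were highest with DKK2 (Kdr and Pecam1 among them) and 0 in normal glucose. Their part in the Robo4 result was not tested. Robo1, a Slit receptor, read 269%, 488% and 327%, a DKK2 difference of -0.86 that did not reach 2-fold.

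Robo3 and Robo4 are next to each other on chromosome 9 in the RefSeq gene table and moved in opposite directions with DKK2. Their start regions are shown with those of the other members with a single annotated start and a DKK2 difference of at least 1.5 log2 units, namely Sema3d and Plxna3. Each is the 250 bases before the annotated start, 5′ to 3′ on the gene's strand, from RefSeq on GRCm38.p6. Capitals mark matches on either strand to 4 short motifs: CTTTGAT (TCF/LEF, the factors at the end of the Wnt pathway), TGANTCA (AP-1), GGAATG (TEAD) and GGGCGG (GC box).
Robo3, chr9:37433176-37433425, minus strand: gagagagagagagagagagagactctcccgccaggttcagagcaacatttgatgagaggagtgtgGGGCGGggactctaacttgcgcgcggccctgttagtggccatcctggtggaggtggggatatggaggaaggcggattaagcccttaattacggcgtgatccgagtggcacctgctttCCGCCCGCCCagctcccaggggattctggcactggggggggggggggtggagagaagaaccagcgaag
Robo4, chr9:37401722-37401971, plus strand: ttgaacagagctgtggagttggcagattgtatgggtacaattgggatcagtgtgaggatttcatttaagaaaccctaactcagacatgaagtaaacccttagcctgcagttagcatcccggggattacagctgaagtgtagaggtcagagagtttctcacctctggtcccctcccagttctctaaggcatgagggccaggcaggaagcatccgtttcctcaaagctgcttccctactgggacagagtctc
Sema3d, chr5:12382916-12383165, plus strand: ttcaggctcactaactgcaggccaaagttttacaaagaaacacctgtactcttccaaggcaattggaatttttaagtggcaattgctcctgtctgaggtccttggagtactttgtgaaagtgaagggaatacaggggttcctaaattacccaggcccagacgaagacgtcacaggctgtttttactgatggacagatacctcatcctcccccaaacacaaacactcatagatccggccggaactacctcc
Plxna3, chrX:74328816-74329065, plus strand: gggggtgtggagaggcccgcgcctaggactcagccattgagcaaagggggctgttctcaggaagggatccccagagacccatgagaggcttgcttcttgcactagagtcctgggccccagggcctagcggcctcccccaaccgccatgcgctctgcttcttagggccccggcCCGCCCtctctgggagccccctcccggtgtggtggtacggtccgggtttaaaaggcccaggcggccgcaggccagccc
The Robo3 window held 3 GC boxes, the Plxna3 window held 1, and the Robo4 and Sema3d windows held no match to any of the 4 motifs. In the Robo3 window 2 of the GC box matches share 2 bases, and no match overlapped one of a different motif in these windows. Start windows were found for 57 of the 66 members (73 windows). The GC box was in 69.9% of them, against 32.7% of all 32851 windows of the table. For members lower with DKK2 than in high glucose it was in 46.2% of 13 windows, and for higher ones in 50% of 4. CTTTGAT was in 0 of the 73 windows and in 3.21% of all windows, TGANTCA in 4.11% and 6.75%, and GGAATG in 11% and 12.6%. A missing match says only that these letters are not in the window.

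The Slit ligands moved less. Slit2 read 222% with DKK2, 338% in high glucose and 442% in normal glucose, and Slit3 read 185%, 236% and 407%. Both were at their lowest with DKK2 and at their highest in normal glucose, and neither reached 2-fold between DKK2 and high glucose (-0.60 and -0.35). Slit1 was at 0.38.

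Among the semaphorins, 4 of 20 were lower with DKK2 and 1 was higher, beside 5.13% and 4.73% of all genes. The semaphorin median was -0.45. Of the 7 secreted class 3 genes, 6 lay below 0 (median -0.71). Sema3d read 5.16% with DKK2, 20.2% in high glucose and 34.2% in normal glucose. This was a 3.92-fold fall with DKK2 relative to high glucose (log2 -1.97, or -1.59 with normexp fitted on unflagged spots). Sema3e, the Plxnd1 ligand gene, read 3.37%, 8.07% and 6.88%, a difference of -1.26 that was -0.79 with normexp fitted on unflagged spots. The class 3 gene Sema3c, whose product is known from heart outflow tract development, read 1267% with DKK2, 2072% in high glucose and 1370% in normal glucose. Its DKK2 difference of -0.71 was matched by -0.61 on its other probe, and neither probe reached 2-fold. Sema3f, a neuropilin 2 ligand gene, was at -0.84, Sema3a, the founding repellent, at -0.53 and Sema3b at 0.12.

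Membrane-bound semaphorins changed in both directions. Sema6c, a transmembrane semaphorin gene, read 25.7% with DKK2, 80.9% in high glucose and 78.9% in normal glucose on 1 probe, which is 3.14-fold lower than in high glucose. Its other probe read 23.6%, 25.5% and 25.1%, a difference of -0.11, so the probes of Sema6c disagree in size. Sema7a, the lipid-anchored semaphorin gene whose product binds Plxnc1 and integrins, read 22.6%, 48.8% and 38.1%, 2.16-fold lower with DKK2 than in high glucose. Sema4d, the Plxnb1 ligand also known as CD100, read 7.32% with DKK2, 3.35% in high glucose and 3.94% in normal glucose. It was 2.18-fold higher with DKK2, but at 0.76 with normexp fitted on unflagged spots, and it was dim (processed signal 196, 86.1 and 50.4). Sema4b and Sema5a were at 0.67 and 0.61 and did not pass 2-fold here, and Sema4c was at -0.22 with signals of 2040%, 2380% and 2878%. Sema6d was at 0.07 and its other probe at 0.06. The remaining semaphorins lay between -0.88 (Sema6a) and 0.34 (Sema6b).

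The plexins, the semaphorin receptors, had 1 member lower and 1 higher of 9, both from the A class that works with neuropilins. The shares of all genes were 5.13% lower and 4.73% higher. Plxna3 read 39.5% with DKK2, 114% in high glucose and 90.5% in normal glucose, 2.88-fold lower with DKK2 than in high glucose. Plxna1 read 102% with DKK2, against 50.8% in high glucose and 47.4% in normal glucose, 2.01-fold higher. These 2 A-class receptors therefore moved in opposite directions with DKK2, though Plxna1 was at 0.93 with normexp fitted on unflagged spots. Plxnd1, the Sema3e receptor of endothelium, was at -0.19, and Plxnb2 was at -0.16 with signals of 2235%, 2500% and 2940%. The remaining plexins lay between -0.78 (Plxna4) and 0.53 (Plxna2).

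**Figure D2:**
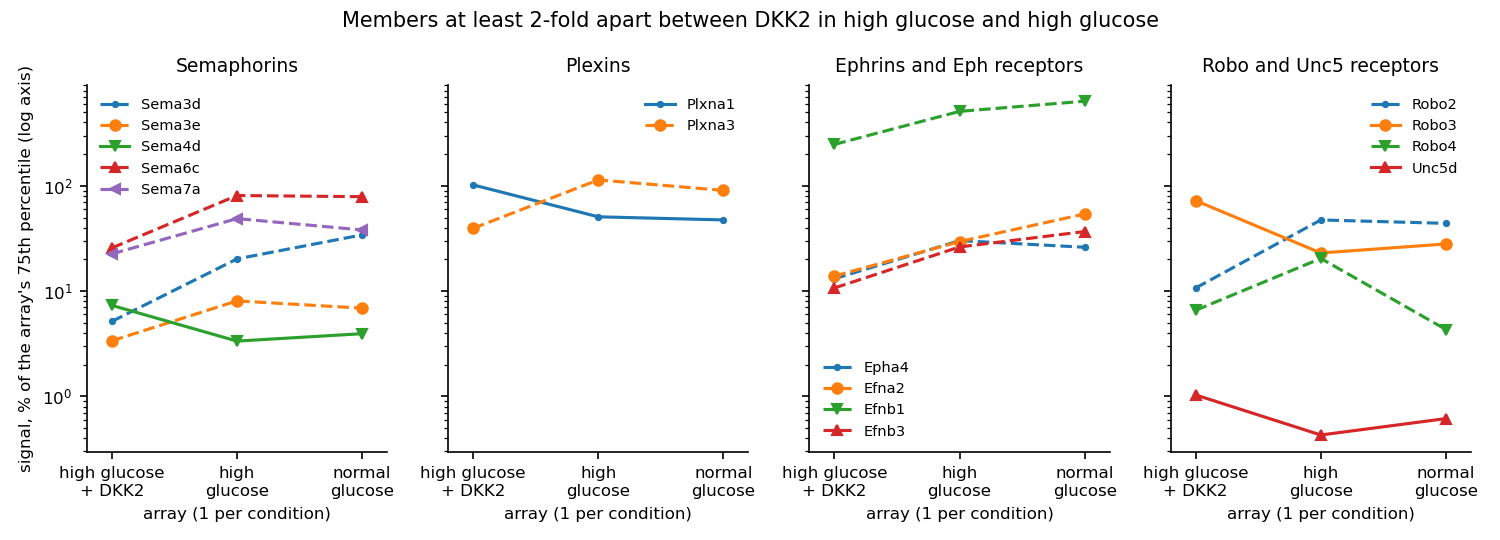
Signal in percent of the array's 75th percentile (vertical log axis) on the 3 arrays (horizontal axis) for the 15 members at least 2-fold apart between DKK2 in high glucose and high glucose, solid lines for genes higher with DKK2 and dashed for lower ones; Unc5d was not well above background in normal glucose. Robo4 has its peak in high glucose, with 20.4% against 6.58% with DKK2 and 4.32% in normal glucose.

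Of 8 ephrins, 3 were lower with DKK2 and 0 higher (median -0.26), beside 5.13% and 4.73% of all genes. Efnb1, a transmembrane ephrin gene, read 247% with DKK2, 510% in high glucose and 637% in normal glucose, a difference of -1.04. Efnb3, of the same class, read 10.7%, 26.3% and 36.8%, a difference of -1.29. Efna2, a lipid-anchored ephrin gene, read 13.9%, 29.6% and 54.0%, a difference of -1.09. For these 3 genes the order was the same, lowest with DKK2 and highest in normal glucose. Efnb2, the arterial ephrin gene, read 159%, 147% and 241% and was at 0.11, with 0.02 on its other probe. Efna1, an EphA2 ligand gene induced by inflammatory cytokines, was at 0.50, and Efna3 was at 0.23 with -0.16 on its other probe. Efna4 and Efna5 were at -0.14 and -0.38.

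Of 12 Eph receptors measured on both arrays, 1 was lower with DKK2 and 0 higher (median -0.14). These counts lay near the shares of all genes, 5.13% and 4.73%. Epha4, a receptor that binds ephrins of both classes, read 13.1% with DKK2, 30.2% in high glucose and 26.1% in normal glucose, a difference of -1.20. Epha3 and Epha7 were at -0.91 and -0.77, and the other 2 probes of Epha7 were at -1.33 and -0.52. Ephb4, the venous receptor gene, read 122%, 136% and 214% and was at -0.16, with -0.13 on its other probe. Ephb3 read 1217%, 1273% and 1215%, within the technical error on all arrays, and Ephb2 was at 0.65. The other receptors measured, Epha5 among them at -0.04, lay between -0.29 (Epha10) and 0.29 (Epha8). Epha6 was above background in high glucose only, on a processed signal of 10.3. The Ephb1 probe passed background on the high glucose array alone, with a processed signal of 46.3, against 1.83 with DKK2 and 1.83 in normal glucose. Set against the lowest signal called above background on the dim array, Ephb1 was 6.05-fold lower with DKK2 than in high glucose. Set in the same way, Ephb1 was 3.05-fold higher in high glucose than in normal glucose. Such a bound rests on 1 dim spot and is not strict. Some probes failed above the lowest passing signals of 7.97 with DKK2 and 7.57 in normal glucose. Examples are Ntn5 at 9.06 with DKK2 and the endothelial marker Emcn at 9.89 in normal glucose.

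Of the netrins and their Unc5 receptors, 1 of 7 measured genes, the dim Unc5d, was past 2-fold with DKK2. The share of all genes was 9.86% in either direction. Ntn1, the netrin-1 gene, read 143% with DKK2, 175% in high glucose and 298% in normal glucose, a difference of -0.30, with -0.17 on its other probe. Unc5b, the netrin receptor of endothelial cells, read 203%, 193% and 222% and was at 0.07. Unc5c read 67.5%, 135% and 124%, a difference of -0.9967, but its other probe was at -0.18. Unc5d was 2.40-fold higher with DKK2, on processed signals of 27.6 and 11.0, and at 0.25 with normexp fitted on unflagged spots. Unc5a was at -0.14, Ntn3 at -0.50 and Ntn4 at 0.34.

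The next comparison, high glucose against normal glucose, asks what glucose did to these genes. Of 62 members measured on both arrays, 4 were lower (Sema5b, Sema6a, Sema4g and Epha2) and 2 were higher (Robo4 and Plxna2). Over all 16766 genes 5.95% were lower and 2.44% higher (8.39% in either direction), against 6.45% and 3.23% of the members, so the members' shares lay near those of all genes. The median difference of the members was -0.00, against 0.07 over all genes, and 43 of 62 members lay within 0.5 log2 units of 0.

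Sema6a, a transmembrane semaphorin gene, read 34.1% in high glucose, against 97.4% in normal glucose, 2.86-fold lower. With DKK2 it read 18.5%, lower still, at -0.88 relative to high glucose. Sema4g read 13.0% in high glucose, against 36.8% in normal glucose, 2.84-fold lower. Sema5b, known for repelling retinal axons, read 1.31% in high glucose, against 7.61% in normal glucose, a difference of -2.53 on a processed signal of 33.8 in high glucose and 97.3 in normal glucose. Epha2, an ephrin-A receptor gene active in vessel growth, read 261% in high glucose, against 667% in normal glucose, 2.56-fold lower, and stayed at 262% with DKK2. Plxna2 read 90.6% in high glucose, against 39.4% in normal glucose, a difference of 1.20, and 131% with DKK2. Robo4 was 4.73-fold higher in high glucose, at 2.24. The normal glucose signal of Robo4 was 55.2, and with normexp its difference was 0.86, or 1.44 when the correction was fitted on unflagged spots. All 6 of these members stayed past 2-fold with the refitted correction.

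**Figure D3:**
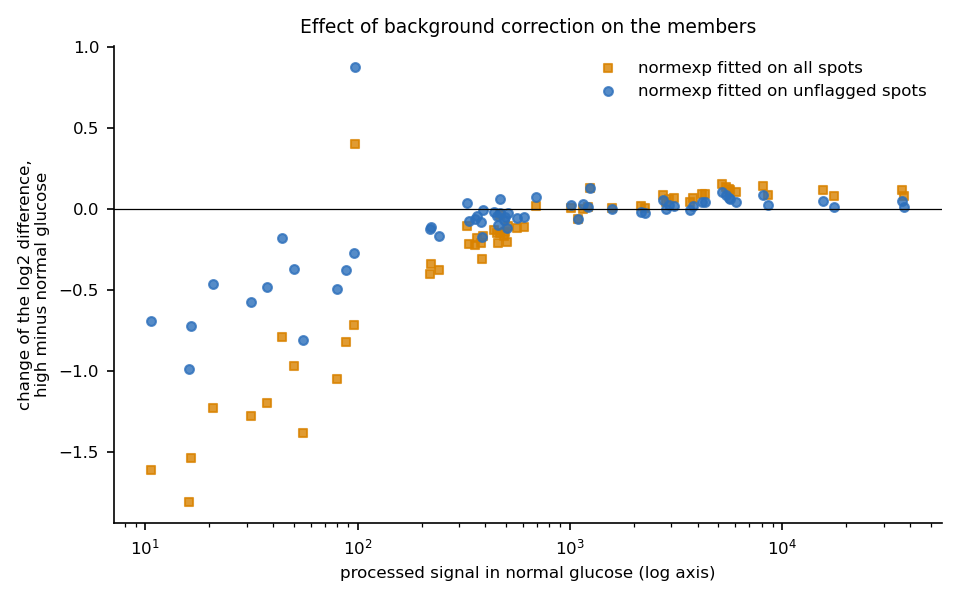
Change of each member's log2 difference between high and normal glucose (vertical axis) when normexp replaces the scanner's background correction, against the processed signal in normal glucose (horizontal log axis). Squares are the fit on all spots and circles the fit on unflagged spots; the points spread at the dim end, where Robo4, at a signal of 55.2, has a difference of 0.86 and 1.44 in place of 2.24.

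The glucose differences of a gene's probes did not always share a sign. Of 15 members with at least 2 probes measured on both arrays, 8 had probes on both sides of 0, namely Epha5, Epha7, Robo2, Efnb2, Plxnc1, Plxnd1, Sema3c and Sema6d. Efnb2, Plxnc1 and Sema3c were the 3 with a probe past its error SD on each side of 0; for Epha5 and Sema6d the probes lay within about 1 error SD of 0. The glucose difference of Robo2 was 0.11 on 1 probe and -1.79 on the other, and that of Sema3c was 0.60 and -0.50. For Plxnd1 the values were 0.18 and -0.92, and for the arterial ephrin gene Efnb2 they were -0.71 and 0.24. With DKK2 against high glucose 1 of 15 such members, Efna3, had probes on both sides of 0, and 0 had them past the error SD on each side. None of the 6 members past 2-fold for glucose had another probe measured on both arrays; the other Sema5b probe was above background in high glucose only.

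**Figure D4:**
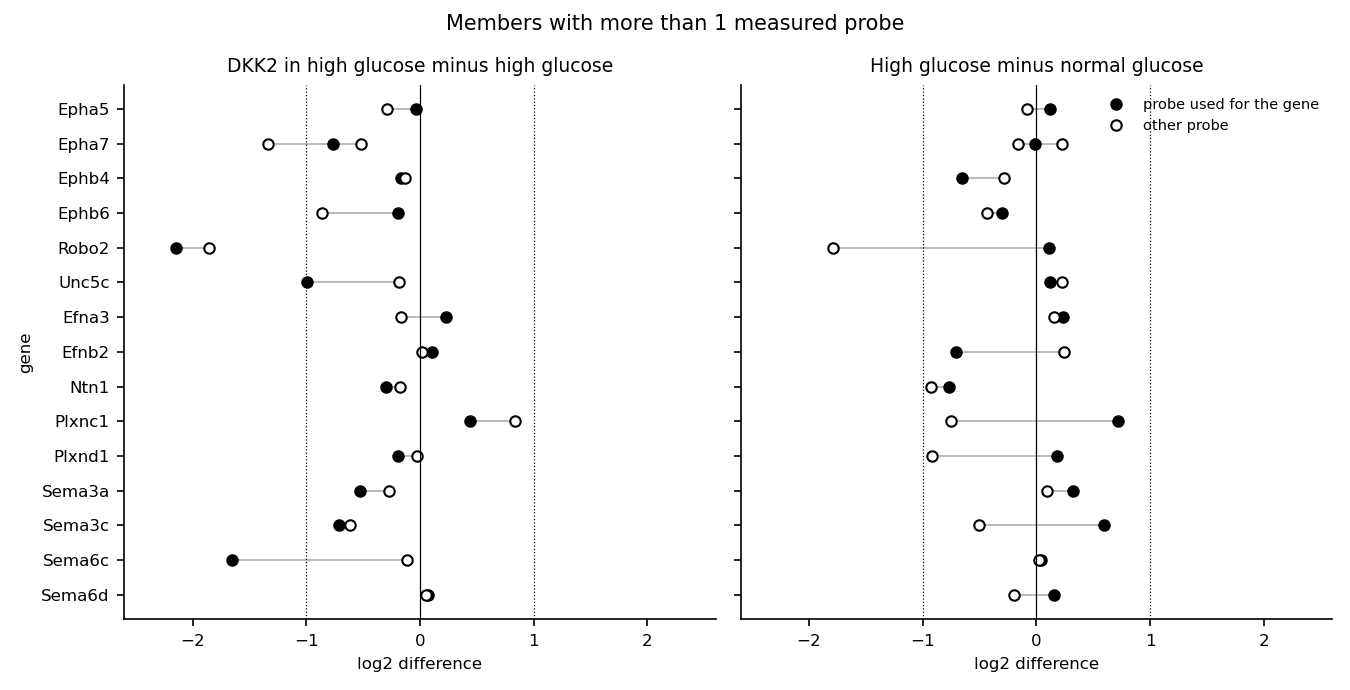
Log2 differences (horizontal axes) of each probe for the 15 members with more than 1 measured probe (vertical axis), with DKK2 against high glucose at left and high against normal glucose at right; filled points are the probe used for the gene, open points its other probes. Robo2 probes lie at -2.15 and -1.86 at left, and at 0.11 and -1.79 at right.

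DKK2 in high glucose against normal glucose sums both changes. Of 62 members 16 were lower and 6 higher, which is 25.8% and 9.68% of them, beside 11.2% lower and 9.39% higher (20.6% in either direction) over all 16676 genes. The median difference of the members was -0.29, against 0.06 over all genes. This comparison shares an array with each of the others, so its calls are not separate evidence. Of the 11 members lower with DKK2 than in high glucose, 8 were also lower than in normal glucose: Efna2, Efnb1, Efnb3, Plxna3, Robo2, Sema3d, Sema3e and Sema6c. Sema3e, at -1.03, lost this call under 5 alternatives that kept the 2-fold rule, and Sema6c lost it with the mean over its probes. Another 8 members were lower only relative to normal glucose: Epha2, Ntn1, Plxna4, Sema3f, Sema4g, Sema5b, Sema6a and Slit3.

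Sema3d was 6.64-fold lower with DKK2 than in normal glucose and Sema6a 5.27-fold lower. Sema5b was 7.45-fold lower, but at -1.74 in place of -2.90 with normexp fitted on unflagged spots. The ligands Efna2 and Efnb3 were 3.89-fold and 3.44-fold lower, and Ntn1 and Slit3 were 2.09-fold and 2.21-fold lower. The other probe of Ntn1 was past 2-fold as well. Of 15 members with at least 2 probes measured on both arrays, 5 had probes on both sides of 0, with Efnb2 past the error SD on each side. The other probes of Sema3c (-1.12) and Ephb6 (-1.30) and 1 of Epha7 (-1.11) passed 2-fold, while the probes used did not. For Plxnc1 and Sema6c only the probe used passed. Robo2 was at -3.65 on its other probe, against -2.04 on the probe used. Plxna4, an A-class plexin gene, read 12.2% with DKK2 and 28.5% in normal glucose, a difference of -1.23, and Sema3f was at -1.17.

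The 6 members higher than in normal glucose were Plxna2 (3.33-fold), Robo3 (2.58-fold), Plxnc1 (2.24-fold), Sema4b (2.22-fold), Plxna1 (2.15-fold) and Sema5a (2.08-fold). Sema4b, a transmembrane semaphorin gene, read 79.0% with DKK2, 49.5% in high glucose and 35.5% in normal glucose. Sema5a read 177%, 116% and 85.3%, so both genes stood in the same order over the arrays. Plxnc1, the Sema7a receptor gene, read 13.9% with DKK2 and 6.22% in normal glucose, but its other probe was at 0.08. With normexp fitted on unflagged spots Plxnc1 was at 0.54 and Plxna1 at 0.97. That fit left 4 members higher and 15 lower, beside 5.74% and 10.1% of all genes. By class, on the scanner's own background correction, 12 of 34 ligands were lower and 2 higher. Of 28 receptors 4 were lower and 4 higher. The shares of all genes were 11.2% lower and 9.39% higher.

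Other genes of the guidance pathways were read from lists of co-receptors, intracellular signalling genes and processing enzymes. Of 20 measured co-receptors and other cues, 1 was lower and 1 higher with DKK2 than in high glucose. These counts lay near the share of all genes, 5.13% lower and 4.73% higher. With DKK2 against normal glucose 5 of the 20 were lower and 1 higher, beside 11.2% and 9.39% of all genes. Neo1, a netrin and repulsive guidance molecule receptor gene, read 203% with DKK2, against 97.8% in high glucose and 103% in normal glucose. Flrt3, an adhesion protein gene whose product binds Unc5 receptors, was lower by a difference of -1.31. The class 3 co-receptors Nrp1 and Nrp2 were at -0.69 and -0.03. Dcc, the netrin receptor gene, read 3322% with DKK2, 6155% in high glucose and 16684% in normal glucose, a difference of -0.89 with DKK2 and -1.44 for glucose. Levels of different probes are not comparable, and whether this very bright probe reads Dcc alone was not tested.

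Of 55 signalling genes, 4 were lower and 2 higher with DKK2 than in high glucose (median -0.01). These counts too lay near the share of all genes, 5.13% lower and 4.73% higher. The lower signalling genes were Ablim1, an actin-binding protein gene (-1.55), Rnd3 (-1.48), Dpysl4, a collapsin response mediator gene (-1.28), and Limk1, the cofilin kinase gene (-1.18). The higher ones were Vav3 (1.27), and Enah, an actin polymerisation factor gene that acts below Robo and netrin receptors, which read 99.1% with DKK2, against 46.3% in high glucose and 36.4% in normal glucose. For glucose, 0 of 55 were higher and 2 lower, Gipc1 at -1.41 and Gsk3b at -1.04. Over all genes 2.44% were higher and 5.95% lower for glucose. Of 9 processing enzymes 0 passed 2-fold with DKK2, and Mmp2 was at -1.06 for glucose.

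Markers of several cell types moved between the same arrays. With DKK2 against high glucose, 5 of 9 macrophage and leukocyte markers were higher and 0 lower, 3 of 10 fibroblast markers were lower and 0 higher, and 5 of 16 endothelial markers were lower and 0 higher. Over all genes 4.73% were higher and 5.13% lower. The summed signal of the fibroblast list was 32431% with DKK2, 45635% in high glucose and 49729% in normal glucose, that of the smooth muscle list 2697%, 4752% and 7941%, and that of the macrophage list 2145%, 1706% and 2522%. Such sums follow the brightest probes: Itgam alone read 1456%, 1454% and 2301%, and the other 8 macrophage markers summed to 690%, 252% and 221%. Without Acta2 the smooth muscle list summed to 2100%, 2804% and 4065%. Of its 10 markers 1 was lower with DKK2 than in high glucose and 0 higher. The endothelial list summed to 744%, 712% and 483%, and to 336%, 357% and 197% without Kdr. With normexp fitted on unflagged spots, 1 of 16 endothelial markers was lower, and 5 of 9 macrophage markers were again higher. For glucose, where 2.44% of all genes were higher and 5.95% lower, 4 of 15 endothelial markers were higher and 0 lower. These were Icam2 at 2.54, Mmrn2 at 1.74, Cldn5 at 1.53 and Nos3 at 1.24. With normexp fitted on all spots 0 of 15 were higher and 2 lower, with Cldn5 at -0.27, and fitted on unflagged spots 2 were higher (Icam2 at 1.52 and Mmrn2 at 1.30) and 0 lower. Of 8 Schwann cell and glia markers, 2 were lower with DKK2 and 0 higher, and of 6 neuron markers 1 was lower and 0 higher. Lower with DKK2 were also 3 of 6 adipocyte and 2 of 5 skeletal muscle markers, with 0 higher, and of 4 epithelial markers 1 was higher and 1 lower. The part of these cell types in the guidance gene differences was not tested.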

How the data were processed

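Samples were grouped by their titles. Arrays were read, per the file headers, with Feature Extraction 11.5.1.1, on a grid built for mm9. The deposited scanner files give, for each spot, a linear intensity, the processed signal, corrected for background by the authors' scanner software, with its error and flags. The deposited value table also holds intensity, equal to the processed signal within a fraction of 0.001 on all 3 arrays for 99.1% of probes. No further processing by the submitters is described in the sources used.

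Of 44397 spots per array, 1377 control spots and 110 to 136 outlier spots were left out, and 0 were saturated. From these intensities log2 was taken, and the 75th percentile of each array's remaining spots was subtracted. The number of arrays limits the precision. Probes were named through their RefSeq accessions (27508 named, 11921 not), with the table of GRCm38.p6 used for names and start sequences. Each member probe had 1 spot. A gene was its brightest probe among those well above background on at least 1 array. With 1 array per condition there was no test: a member was called at 2-fold, and a bound set the dim array at the lowest above-background signal there, or at the probe's own signal if higher. Counting was tested on simulated data with planted changes past 2-fold and noise smaller than the scanner's error. That checks the code and not the calls near 2-fold. Named are all members past 2-fold or with such a bound, those whose probes differ in sign, and the member with the highest mean signal per family; others named only to fill out a family were chosen after their values were seen. The members, the lists and the rule were chosen with earlier results of these data known. Alternatives were normexp (offset 50, on median signals), quantile and median scaling, no or a stricter filter on dim probes (signal of at least 100), probe means, values of the deposited table, and 1.5-fold and 3-fold rules. Chosen after seeing the data were normexp fitted on unflagged spots and a percentile over probes. Tools were R 4.3.3, limma 3.58.1, Python 3.11.15, numpy 2.4.6 and pandas 2.3.3.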

Additional observations from a re-analysis of the deposited data

How the results depend on the processing

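No paired analysis was possible because there was 1 array per condition, and for the same reason no array could be left out. In the comparisons where they were past 2-fold, the 27 such members kept their direction under every alternative that measured them, but not always the call. For DKK2 against normal glucose, Sema3e fell short of 2-fold with quantile normalization, median scaling, the deposited values, the percentile over probes and normexp fitted on unflagged spots, Ntn1 with median scaling, and Ntn1, Sema3f, Slit3, Plxna1 and Plxnc1 with normexp fitted on all spots. The counts depended on the size rule. With 1.5-fold, 7 of 63 members were higher and 21 lower for DKK2 against high glucose. The numbers were 4 and 12 of 62 for high against normal glucose, and 10 and 25 of 62 for DKK2 against normal glucose. Over all genes 11.9% were higher and 12.1% lower, 13.1% and 14.3%, and 21.7% and 20.9%, in the same order. With 3-fold the members' numbers were 1 and 4, 1 and 1, and 1 and 8. The 3-fold shares of all genes were 1.5% and 1.91%, 0.585% and 1.97%, and 3.17% and 4.88%. The filter that asked for a signal of at least 100 on all arrays kept 49 members. It left 2 higher with DKK2 than in high glucose and 1 higher in high than in normal glucose. Of all genes 3.02% and 1.61% were higher under it. Quantile normalization, median scaling, no filter, probe means, the deposited values and the percentile over probes left the members' counts within 1.5 times of those reported. Without the filter, Ephb1 and Epha6 were also past 2-fold for DKK2 against high glucose. Over all genes, no filter gave 1229 higher and 1417 lower for DKK2 against high glucose, 1043 and 2174 for glucose, and 2434 and 2977 for DKK2 against normal glucose; the stricter filter gave 367 and 525, 196 and 612, and 927 and 1257.

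Normexp moved the glucose comparisons most. Fitted on all spots, it left 1 member higher with DKK2 than in high glucose, beside 2.64% of all genes. It left 0 members higher and 12 lower in high than in normal glucose (median -0.21), and a median of -0.61 for DKK2 against normal glucose. Over all genes it gave 4030 lower and 160 higher in high glucose, against 997 and 409 in the values reported, and moved the median of all genes to -0.27, against 0.07; for DKK2 against normal glucose it gave 4234 lower and 810 higher. On the normal glucose array 1 flagged spot had a foreground minus local background of -852, the next lowest was -7, and the fitted background mean was -65.9. Fitted without the 812 flagged spots, that one included, the background mean was 3.46, 921 genes were lower and 191 higher, the median of all genes was -0.14, and the members again had 4 lower and 2 higher. With that fit 1 member was higher with DKK2 than in high glucose, beside 2.61% of all genes. The members' median for DKK2 against normal glucose was -0.55, beside -0.14 over all genes. Dim signals limit Unc5d, Sema4d, Sema3e, Sema5b, Plxnc1, Ephb1 and Robo4 in normal glucose.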

Other observations

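Among other members that are neighbours in the RefSeq gene table, none were past 2-fold in opposite directions with DKK2, as Robo3 and Robo4 were. On chromosome 16, Robo1 and Robo2 were at -0.86 and -2.15, and on chromosome 5 Sema3d and Sema3a were at -1.97 and -0.53. On chromosome 3, Efna1, Efna3 and Efna4 were at 0.50, 0.23 and -0.14, none of them past 2-fold, with Efna3 and Efna4 on opposite sides of 0.

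The normexp fit is a point to look at again for any gene with a low signal in normal glucose. With all spots in the fit 4030 genes were at least 2-fold lower in high glucose, and without the flagged spots 921. The Robo4 glucose difference was 0.86 with all spots, 1.44 without flagged spots and 2.24 on the scanner's own background correction.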
